A study of Mus musculus with 15 samples.

Results

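The genes described here encode potassium channel subunits. They are the genes of a mouse brain RNA-seq table whose symbol begins with Kcn and ends in a family letter or letters and a number, apart from Kcnj10 and Kcne2, selected on a mean level of at least 1 CPM (read counts scaled to a common library total) over the 15 libraries. The pattern matched 92 symbols among the 54532 genes of the table. After leaving out 2 by name and 13 below 1 CPM, 77 genes remained, and all 77 were among the 18052 genes tested. The members were thus chosen by symbol and by their level over all libraries, and the rule used no difference between groups. Just inside the limit were Kcnq1 at 1.26 CPM, Kcnh8 at 1.43, Kcng3 at 2.21, Kcnmb1 at 2.21 and Kcnu1 at 2.33. Just outside were Kcnk5 at 0.755 CPM, Kcnj15 at 0.371, Kcnk7 at 0.319, Kcne3 at 0.308 and Kcnv2 at 0.184, and of the 13 genes below the limit 1, Kcnk16, had no count in any library.

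The libraries came from wild-type (WT) mice, 5 in each of 3 groups, with 1 library per mouse. Sham mice had sham surgery and were gavaged with distilled water. ICH mice had an intracerebral haemorrhage, a bleed into the brain tissue, and the same water. NYKD mice had the haemorrhage and were gavaged with Nao Yi Kang decoction, a herbal preparation, at 5.79 g/kg once a day. Gavage ran for 3 days in every group, all mice were perfused with saline on day 3, and poly-A RNA was sequenced from the basal ganglia on the operated side. The design text names the treated group NYKD-M without saying what the M stands for, and strain, age, sex and the way the bleed was made were not found in the labels. No untreated mouse without surgery and no sham mouse given the decoction is among the 15, so the effect of the decoction alone cannot be told apart from its effect after a haemorrhage.

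Potassium channels let potassium leave or enter a cell through a pore whose narrowest part, the selectivity filter, is lined by a short stretch of amino acids found in nearly all of them. Voltage-gated channels (Kv) repolarise neurons after a spike and set how fast they can fire; inward rectifiers and tandem pore channels hold the resting potential; calcium- and sodium-activated channels tie excitability to ion load. Pores assemble from subunits of the same family, and auxiliary subunits alter their traffic and gating. In the striatum, the main input nucleus of the basal ganglia, A-type Kv4 and inwardly rectifying Kir2 currents shape the firing of the projection neurons, while glia take up the potassium that active neurons release.

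The 77 genes fell into 8 families. There were 15 pore genes of Kv1 to Kv4 (Kcna, Kcnb, Kcnc, Kcnd), 9 silent Kv subunits that form no channel alone (Kcnf, Kcng, Kcns, Kcnv), 5 Kcnq genes of the M-current, 8 Kcnh genes of the ether-a-go-go group and 8 Kv auxiliary genes (Kcnab, Kcnip, Kcne). The others were 11 calcium- or sodium-activated genes (Kcnm, Kcnn, Kcnt, Kcnu), 12 inward rectifiers (Kcnj) and 9 tandem pore genes (Kcnk), which carry a pair of pore loops in each subunit.

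The filter is what the pore genes share in sequence, and it was searched in the coding sequence of each gene's annotated transcript with the longest coding region. The search looked in frame, on the coding strand, for a glycine, tyrosine or phenylalanine, glycine run (GGNTATGGN, GGNTACGGN, GGNTTTGGN or GGNTTCGGN) whose codon at the second place before the first glycine was threonine or serine (ACN, TCN, AGT or AGC). A match was found in 66 of the 77 genes, beside 2.65% of the 21566 coding genes searched. The 11 without a match were Kcnab1, Kcnab2, Kcnab3, Kcne4, Kcnip1, Kcnip2, Kcnip3, Kcnip4, Kcnmb1, Kcnmb2 and Kcnmb4, all auxiliary subunits that do not line the pore. In 7 of the 9 tandem pore genes the run occurred at 2 places. The stretches below belong to members on which the results turn, lowered, raised or opposed between groups. Capitals mark the 15 bases from the threonine codon to the second glycine. Coordinates are those of GENCODE M21 on GRCm38 (mm10), and where a stretch crosses a splice junction they span the intron.
Kcnd2 (chr6:21217391-21714156, plus strand): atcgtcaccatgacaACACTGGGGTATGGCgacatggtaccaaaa
Kcnt1 (chr2:25894352-25894396, plus strand): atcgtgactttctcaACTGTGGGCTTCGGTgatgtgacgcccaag
Kcnn4 (chr7:24379183-24379227, plus strand): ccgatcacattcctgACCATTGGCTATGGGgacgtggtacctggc
Kcnk6 (chr7:29225845-29232183, minus strand): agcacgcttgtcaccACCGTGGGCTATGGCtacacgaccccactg
Kcnk12, first pore loop (chr17:87746819-87797085, minus strand): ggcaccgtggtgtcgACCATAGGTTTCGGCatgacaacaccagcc
Kcnk12, second pore loop (chr17:87746438-87746482, minus strand): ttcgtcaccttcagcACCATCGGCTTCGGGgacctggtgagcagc
In these stretches Kcnd2, Kcnn4 and Kcnk6 carry a tyrosine codon (TAT) between the glycines, and Kcnt1 and both loops of Kcnk12 carry a phenylalanine codon (TTC).

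Library totals ran from 13539203 to 19909140 counts, and the 77 genes together took 0.383% to 0.541% of the counts in sham, 0.239% to 0.404% in ICH and 0.255% to 0.401% in NYKD libraries. The tissue label was checked against 10 markers of striatal projection neurons, among them Ppp1r1b, Drd1, Drd2, Adora2a and Penk; none was at 0 in all libraries. Their mean log2 CPM was 8.53 to 8.87 in sham replicates 2 to 5 but 6.17 in sham replicate 1. It was 5.85 to 8.31 in ICH and 3.58 to 7.40 in NYKD, with NYKD replicates 4 and 5 lowest at 4.58 and 3.58. The libraries therefore differ in how much striatal signal they hold within every group. The mean log2 CPM of 8 thalamus markers was 7.21 in sham replicate 1 and 4.76 to 5.93 in the other sham libraries. In ICH it was highest, at 6.43, in replicate 3, the ICH library lowest in striatal markers. In NYKD it ran from 5.73 to 6.48, with replicate 4 highest and replicate 5 at 5.99. Markers of cortical excitatory neurons ran from 1.18 to 4.62 over all 15 libraries. The part of these regional markers in the channel levels was not tested. ICH replicate 4 stood apart in neutrophil markers, at a mean log2 CPM of 4.71 against -0.74 to -0.10 in the other ICH libraries. Choroid plexus markers ran from 1.44 to 7.12 over all 15 libraries. In bulk tissue fewer cells of a type and less RNA per cell cannot be told apart.

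Levels between genes are compared per length, as TMM-scaled CPM per kb of the longest annotated transcript, averaged over the 15 libraries. The highest was Kcnab2, which encodes the Kv beta 2 subunit that docks on Kv1 channels, at 64.8 CPM per kb. Also high were the Kv4 partner Kcnip2 at 40.3, the tandem pore gene Kcnk1 at 40.2 and Kcnab1, another Kv1 beta subunit, at 39.5. Among the remaining families the highest were the Kir2 gene Kcnj4 at 33.5, the Kv4 pore gene Kcnd2 at 25.1, the sodium-activated Kcnt1 at 21.1, Kcnh3 at 16.2 and the silent subunit Kcnf1 at 9.47. Family medians ran from 2.30 CPM per kb for the calcium- or sodium-activated genes to 22.0 for the Kv auxiliary genes, and the lowest gene was Kcnh8 at 0.333. By CPM without regard to length, 23 of the 77 genes had a mean of 50 or more and 15 had a mean under 5.

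The order at the top was not the same in every group. Kcnab2 led in all 3, at 87.3 ± 19 CPM per kb (SD, n = 5) in sham, 45.4 ± 9.92 in ICH and 61.7 ± 17.6 in NYKD. Kcnj4 was at 59.4 ± 27.5 CPM per kb in sham and 13.2 ± 8.83 in NYKD, whereas Kcnk1 was at 53.5 ± 13.9 and 33.1 ± 8.15. Kcnj4 and Kcnk1 did not differ beyond their spread in sham but their levels plus or minus 1 SD no longer met in NYKD.

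**Figure D1:**
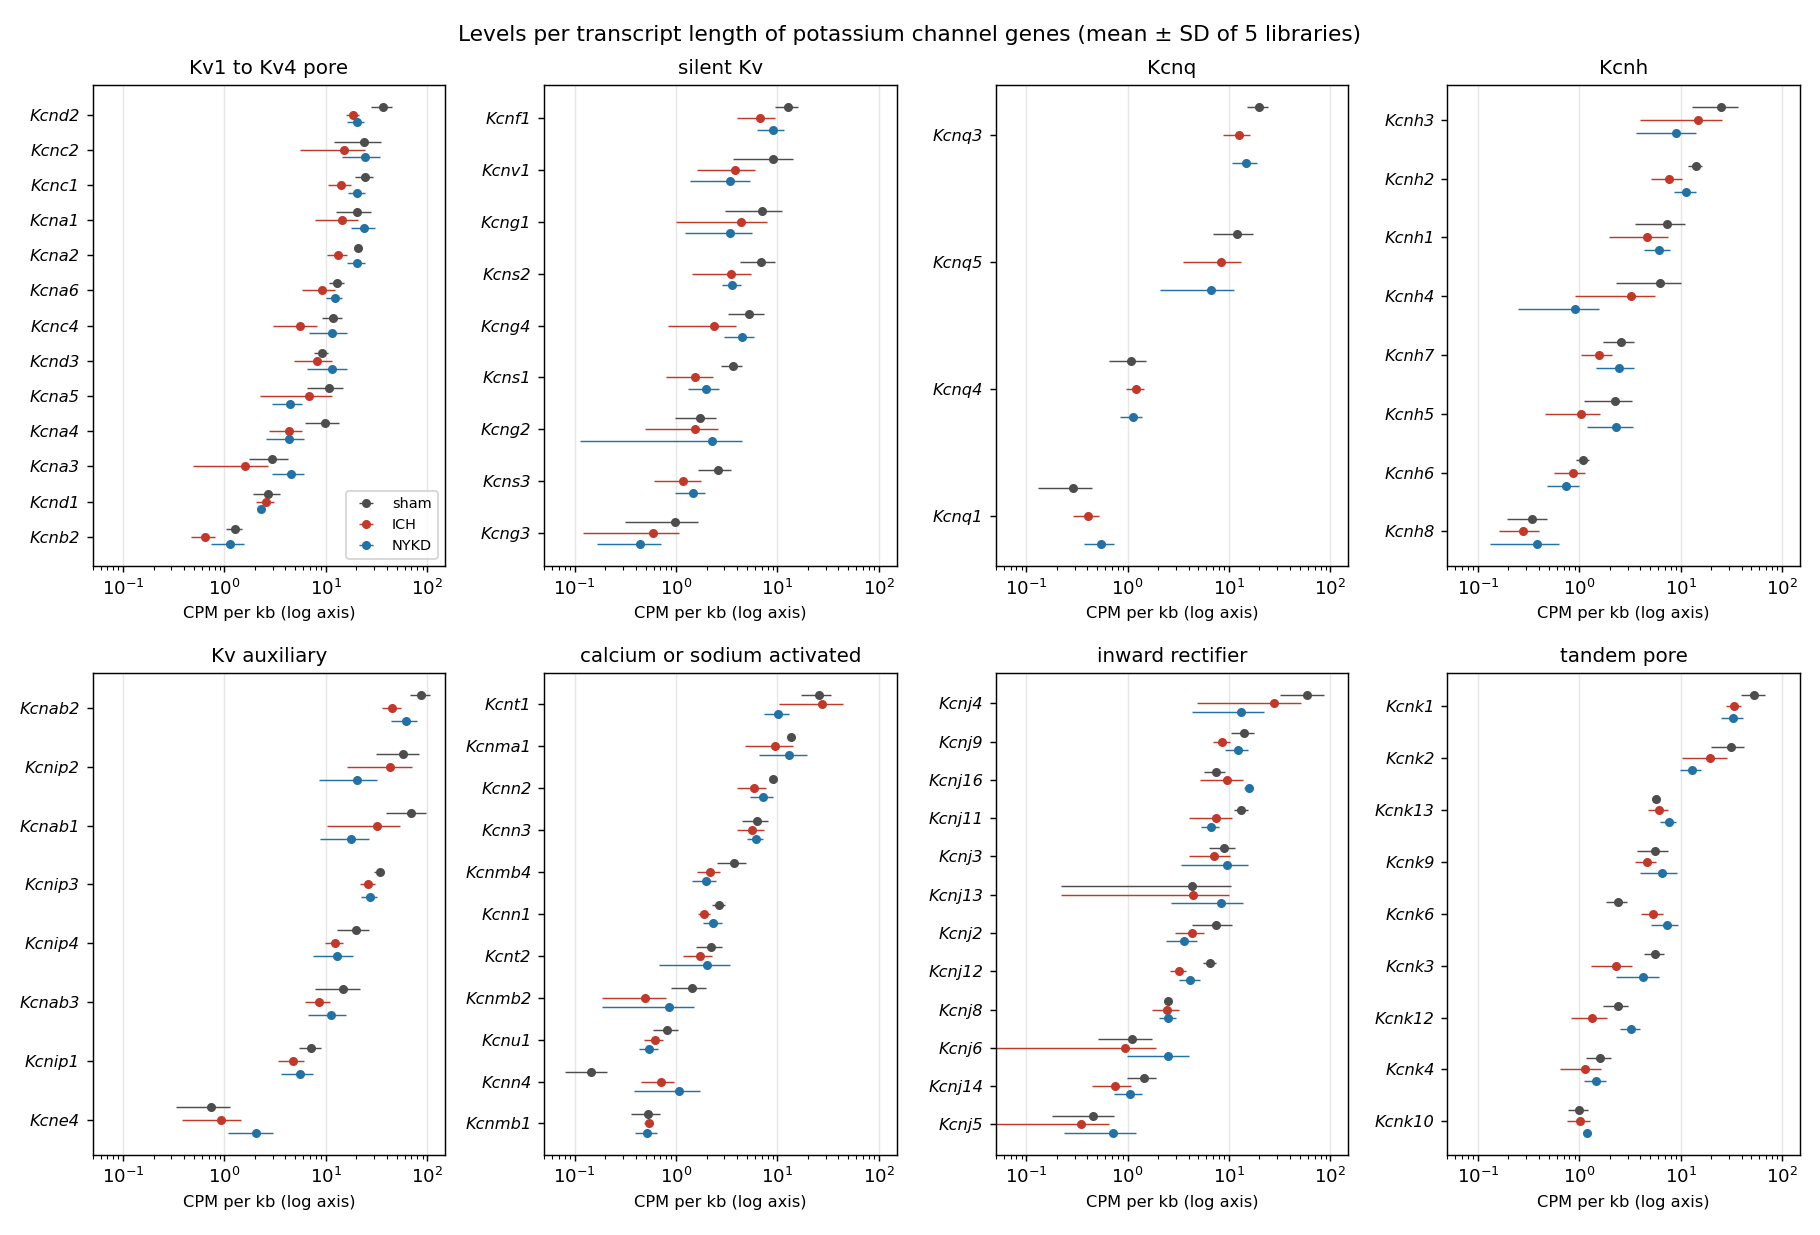
TMM-scaled CPM per kb of the longest transcript (log axis) of 74 of the 77 genes, by family, for sham, ICH and NYKD. Points are means and bars are SDs of 5 libraries, and a lower bar that would pass 0 is shortened. Kcnab2 stands highest at a mean of 64.8 CPM per kb, and most ICH points lie left of their sham points.

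After haemorrhage the balance of the genes was downward. In ICH against sham, 17 of the 77 genes were lowered and 2 were raised at an adjusted p under 0.05 (edgeR quasi-likelihood F-test, Benjamini-Hochberg over 18052 genes). That is 22.1% lowered beside 4.58% of all tested genes, and 2.60% raised beside 12.4% of all tested genes. The log2 fold change was negative in 66 of the 77 genes, and its median was -0.64 beside 0.05 over all tested genes. Among the 17 lowered genes were Kcna2, Kcna4, Kcnb2, Kcnc1, Kcnc4 and Kcnd2 among the Kv pores, Kcnf1 and Kcns1 among the silent subunits, Kcnab2, Kcnh2 and Kcnn2, the inward rectifiers Kcnj9, Kcnj11 and Kcnj12, and the tandem pore genes Kcnk1 and Kcnk3. The 2 raised genes were Kcnk6 and Kcnn4. In 10 genes every ICH library lay below every sham library, beside 3.25% of all tested genes, and in 2 every ICH library lay above, beside 8.03%.

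The Kv1 to Kv4 pore genes held 7 of the 17 lowered genes, and all 15 had a negative log2 fold change. Kcnd2 encodes Kv4.2, the dendritic A-type channel that delays spiking. Its level was 124, 176, 219, 188 and 239 CPM in sham replicates 1 to 5 and 106, 80.1, 80.5, 99.8 and 111 CPM in ICH replicates 1 to 5. All ICH libraries lay below all sham libraries, the nearest being 111 against 124 CPM. The log2 fold change was -0.99 ± 0.18, adjusted p = 0.00156, where the value after ± is a standard error (SE).
Kcna4 encodes Kv1.4, an axonal A-type channel. Its sham values were 24.4, 42.1, 59.2, 42 and 70.3 CPM and its ICH values 16.4, 16.7, 12.7, 28.8 and 28.1 CPM. The groups overlapped only through sham replicate 1, the library low in striatal markers, and the log2 fold change was -1.21 ± 0.33, adjusted p = 0.019. Kcna2 encodes Kv1.2, which sits beside the nodes of myelinated axons. Its sham libraries lay close together, at 249, 224, 226, 255 and 243 CPM, and stood at 196, 112, 175, 129.5 and 155 CPM in ICH. No ICH library reached the lowest sham library, and the log2 fold change was -0.64 ± 0.17, adjusted p = 0.0137.

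Among the Kv3 genes, whose channels let fast-spiking neurons fire at high rates, Kcnc1 and Kcnc4 were lowered, with log2 fold changes of -0.79 ± 0.20, adjusted p = 0.0101 and -1.07 ± 0.32, adjusted p = 0.0291. Kcnc1 fell from 189.6 ± 37.4 to 109 ± 27.1 CPM (SD, n = 5) and Kcnc4 from 43.2 ± 9.77 to 20.6 ± 9.64. Another Kv3 gene, Kcnc2, was at 119.9 ± 59 CPM in sham and 75.9 ± 47.6 in ICH, with overlapping libraries, and was not called. Of the Kv2 genes, which carry the delayed rectifier of the cell body, Kcnb2 fell from 18.8 ± 3.49 to 9.47 ± 2.60 CPM with no overlap (log2 fold change -0.99 ± 0.25, adjusted p = 0.0117).

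The silent subunits join Kv2 pores and change their gating. Kcns1 stood at 7.58, 9.48, 9.03, 9.34 and 13.9 CPM in sham and 5.17, 4.29, 0.767, 6.15 and 4.67 CPM in ICH, so that the groups did not overlap, and its log2 fold change was -1.23 ± 0.38, adjusted p = 0.034. Kcnf1 fell from 60.8 ± 15.9 to 32.2 ± 13.1 CPM (-0.92 ± 0.29, adjusted p = 0.0367), with ICH replicate 1 at 45.5 CPM inside the sham range. All 9 silent subunits had a negative log2 fold change, with a median of -0.98.

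Of the 8 auxiliary genes, 1 was lowered. Kcnab2 was at 294, 317, 294, 334 and 472 CPM in sham and 197, 146, 128, 216 and 204 CPM in ICH. The highest ICH library, at 216 CPM, lay well below the lowest sham library, at 294 CPM, and the log2 fold change was -0.94 ± 0.21, adjusted p = 0.00563. Sham replicate 5, at 472 CPM, lay far above the other sham libraries. The KChIP genes Kcnip1 to Kcnip4, whose calcium-binding products accompany Kv4 pores, were not called by edgeR. Their log2 fold changes were -0.60 ± 0.24, -0.41 ± 0.57, -0.38 ± 0.15 and -0.69 ± 0.26, with adjusted p of 0.104, 0.668, 0.0816 and 0.0798 in that order. Of the 8 auxiliary genes DESeq2 called 3 lowered, and 5 had an unadjusted p under 0.05 by edgeR, beside 5617 of the 18052 tested genes.

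Kcnh2 encodes the ERG channel, known for repolarising the heart and also expressed by neurons. Its values were 75.2, 61.6, 58.6, 53.5 and 51.1 CPM in sham and 24.2, 41.4, 22.2, 27.4 and 47 CPM in ICH. The groups did not overlap, and the log2 fold change was -0.89 ± 0.22, adjusted p = 0.0101. It was the 1 Kcnh gene of 8 to be called, although all 8 changes were negative. Of the 5 Kcnq genes edgeR and limma-voom called 0 in ICH against sham and DESeq2 called 1, and 1 had an unadjusted p under 0.05. Kcnq3, a pore gene of the neuronal M-current, stood at 233 ± 53.6 CPM in sham and at 148 ± 43.8 CPM in ICH.

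Among the inward rectifiers, Kcnj12 encodes Kir2.2, a strong rectifier of the resting membrane. It gave the smallest p of all 77 genes in ICH against sham. Its sham values were 19.8, 14.6, 15.1, 14.6 and 15.7 CPM and its ICH values 6.90, 6.82, 8.49, 6.86 and 10.1 CPM. The highest ICH value was 10.1 and the lowest sham value 14.6 CPM, and the log2 fold change was -1.03 ± 0.19, adjusted p = 0.00137.
Kcnj11 encodes Kir6.2, the pore of the ATP-sensitive channel that opens when energy is short. It fell from 41.5 ± 6.55 to 23.2 ± 10.6 CPM (-0.84 ± 0.26, adjusted p = 0.0332), with ICH replicate 4 at 37.2 CPM among the sham values. Kcnj9, a subunit of the G-protein-gated channels (GIRK), fell from 54.6 ± 13.7 to 33.2 ± 6.64 CPM (-0.72 ± 0.21, adjusted p = 0.025). The other GIRK genes were not called. Kcnj3 was at 46.7 ± 13.7 and 37.2 ± 16 CPM, Kcnj6 at 4.05 ± 2.22 and 3.43 ± 3.42 CPM, and Kcnj5 at 2.14 ± 1.29 and 1.61 ± 1.48 CPM.

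The tandem pore family moved both ways. Kcnk3 encodes the acid-sensitive background channel TASK-1. It was at 28.2, 18.9, 19.9, 15.6 and 24.4 CPM in sham and 7.47, 15.5, 6.25, 6.29 and 8.54 CPM in ICH. The change of -1.28 ± 0.30, adjusted p = 0.00777, was the most negative log2 fold change among the lowered genes, and ICH replicate 2, at 15.5 CPM, all but met sham replicate 4, at 15.6 CPM.
Kcnk1 fell from 119.6 ± 31.1 to 75.7 ± 13.1 CPM without overlap (-0.66 ± 0.19, adjusted p = 0.025). Kcnk6 encodes TWIK-2, a channel known from blood vessels and from macrophages. It stood at 10.7, 11.9, 8.20, 11.3 and 6.68 CPM in sham and 22.3, 23, 20.9, 14.6 and 29.3 CPM in ICH. Every ICH library was above every sham library, and the rise was 2.26-fold (log2 fold change 1.17 ± 0.24, adjusted p = 0.00297).

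Of the 11 calcium- or sodium-activated genes, 1 rose and 1 fell. Kcnn4 encodes the intermediate-conductance calcium-activated channel of blood and immune cells. It was nearly absent from sham, at 0.925, 0.400, 0.320, 0.526 and 0.465 CPM, and stood at 2.75, 2.78, 3.60, 2.69 and 1.03 CPM in ICH. The lowest ICH library, replicate 5 at 1.03 CPM, was just above sham replicate 1 at 0.925 CPM, and the rise was 4.82-fold (log2 fold change 2.27 ± 0.45, adjusted p = 0.00262). Its relative Kcnn2, of the small-conductance channels behind the afterhyperpolarisation, fell from 33.5 ± 2.79 to 21.5 ± 6.87 CPM (-0.64 ± 0.21, adjusted p = 0.0437). ICH replicate 1, at 32.6 CPM, lay inside the sham range for Kcnn2. The BK pore gene Kcnma1 was at 164 ± 14.7 CPM in sham and 115 ± 57 in ICH and was not called.

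**Figure D2:**
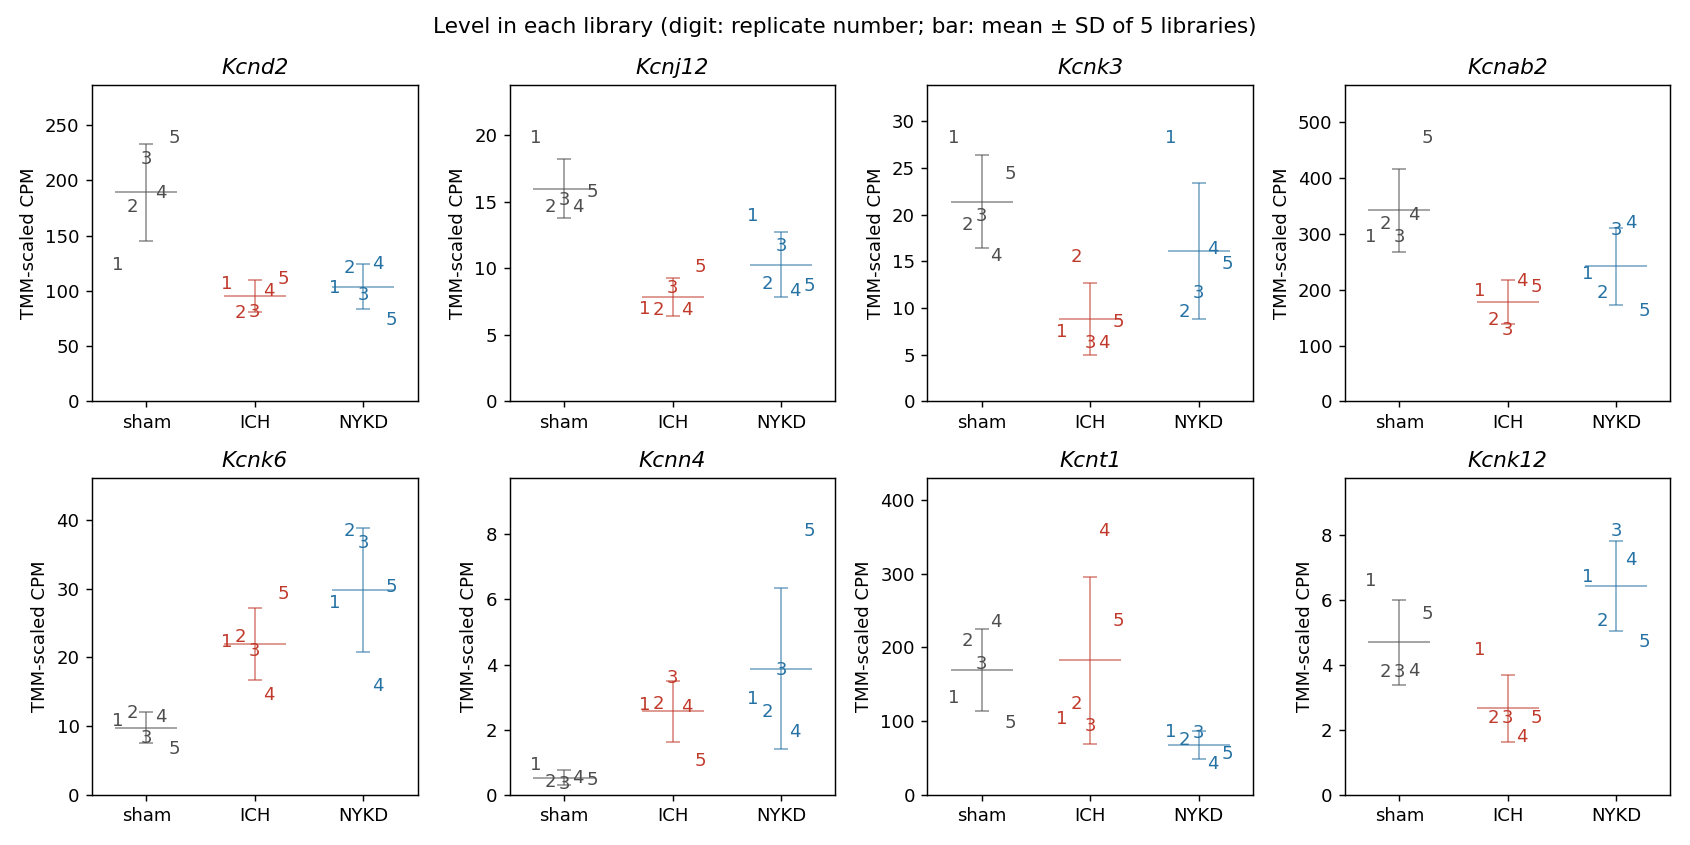
TMM-scaled CPM of 8 genes in each of the 15 libraries, with digits for replicate numbers and bars for the mean ± SD of 5 libraries per group. Kcnd2, Kcnj12, Kcnk3 and Kcnab2 are lower in all ICH than in all sham libraries, Kcnk6 and Kcnn4 are higher, and Kcnt1 and Kcnk12 separate NYKD from ICH.

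Cell type markers moved in the same libraries. The mean log2 CPM of 7 pan-neuronal markers was 8.86 to 9.25 in sham and 8.11 to 8.42 in ICH, without overlap, and 2 of the 7 were lowered. Of the striatal markers 0 of 10 were called in ICH against sham by edgeR, DESeq2 or limma-voom, and 0 had an unadjusted p under 0.05 by edgeR. Of 7 microglia and macrophage markers 5 were raised, at a mean log2 CPM of 4.85 to 5.59 in sham and 5.68 to 6.83 in ICH, and of 5 endothelial markers 3 were raised. Of the 4 neutrophil markers tested 4 were raised by edgeR, 2 by limma-voom and 1 by DESeq2, and in ICH replicate 4 the marker S100a8 was at 161 CPM, against 0.485 to 2.56 CPM in the other ICH libraries. Of 7 oligodendrocyte markers 2 were lowered and 5 had an unadjusted p under 0.05, at a mean log2 CPM of 9.05 to 9.89 in sham and 7.67 to 9.36 in ICH. The part of these shifts in the lowered and raised channel genes was not tested. Without sham replicate 1 and ICH replicate 4, 23 genes were lowered and 3 were raised, 14 of the 17 and both raised genes being among them. These are the sham library lowest and the ICH library highest in striatal markers. The libraries kept had striatal means of 8.53 to 8.87 in sham and 5.85 to 8.05 in ICH, without overlap. That fit therefore does not test the part of striatal signal. Calls that held in all 26 alternatives were those of Kcnk6 and Kcnn4 and of 9 lowered genes, Kcna2, Kcna4, Kcnab2, Kcnb2, Kcnc1, Kcnd2, Kcnh2, Kcnj12 and Kcnk3. The count of lowered genes was lowest, at 10, without ICH replicate 3.

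The decoction was set against the haemorrhage without it in NYKD against ICH. Of the 77 genes 1 was raised, Kcnk12, beside 1.19% of all tested genes, and 1 was lowered, Kcnt1, beside 2.27%. The log2 fold change was positive in 55 genes, with a median of 0.36 beside -0.01 over all tested genes. By edgeR 18 of the 77 genes had an unadjusted p under 0.05, beside 4185 of the 18052 tested genes, a similar share. In 2 genes all NYKD libraries lay above all ICH libraries, beside 2.55% of all tested genes, and in 1 all lay below, beside 5.25%. This comparison shares its ICH libraries with ICH against sham, and the results of the 2 do not stand apart. The 625 genes called over the whole table depended on single libraries too. They became 0 without ICH replicate 5 or NYKD replicate 1, 3 or 5, 1 without ICH replicate 4 and 9 without NYKD replicate 4, but 1494 without sham replicate 5 and 1508 without ICH replicate 1.

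Kcnk12 encodes THIK-2, a tandem pore subunit that gives little current on its own. Its values were 4.47, 2.35, 2.36, 1.77 and 2.36 CPM in ICH and 6.72, 5.37, 8.14, 7.24 and 4.70 CPM in NYKD, and 6.60, 3.77, 3.78, 3.81 and 5.58 CPM in sham. All NYKD libraries were above all ICH libraries, 4.70 against 4.47 CPM at the nearest, and ICH replicate 1 was far above the rest of its group. The log2 fold change was 1.27 ± 0.28, adjusted p = 0.0315. The call was lost without any 1 of ICH replicates 3, 4 or 5 or NYKD replicates 1, 3, 4 or 5, with an adjusted p of 0.0636 without ICH replicate 4 and 0.0854 without NYKD replicate 5. In NYKD against sham the log2 fold change of Kcnk12 was 0.45 ± 0.27, adjusted p = 0.243. In ICH against sham edgeR and limma-voom did not call it, with an unadjusted p under 0.05 in each, and DESeq2 called it lowered.

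Kcnt1 encodes Slack, a channel opened by intracellular sodium. It stood at 103, 124, 92.6, 358 and 236 CPM in ICH and 85.1, 73.7, 83.6, 41.5 and 55.2 CPM in NYKD, and at 131, 208, 177, 234 and 97 CPM in sham. NYKD libraries were all below ICH libraries, and ICH replicates 4 and 5, the ICH libraries highest in striatal markers, held the highest Kcnt1 values. In sham, replicate 5 was highest in striatal markers and lowest in Kcnt1. The log2 fold change was -1.43 ± 0.36, adjusted p = 0.0438 against ICH and -1.32 ± 0.36, adjusted p = 0.0152 against sham. Against ICH it was -1.02 without ICH replicate 4, with an adjusted p of 0.101, and the call was lost in 11 of the 15 fits that each left out 1 library. ICH itself did not differ from sham by the test, at 0.11 ± 0.35, adjusted p = 0.869.

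The other members with small p values did not pass the threshold. Kcna3, whose Kv1.3 channel is known from T cells and microglia as well as neurons, was at 6.45, 1.99, 0.826, 3.25 and 2.67 CPM in ICH and 10.7, 6.35, 4.49, 10.7 and 10.9 CPM in NYKD (1.51 ± 0.43, adjusted p = 0.0599). Kcna2 was at 154 ± 33.7 CPM in ICH and 234 ± 45.2 in NYKD (0.61 ± 0.17, adjusted p = 0.0513), beside 239 ± 14.1 in sham. Kcnb2 did not overlap between ICH and NYKD yet was not called (0.84 ± 0.25, adjusted p = 0.0656). Kcnc4 and Kcnk3 gave log2 fold changes of 1.04 ± 0.32, adjusted p = 0.0697 and 0.87 ± 0.30, adjusted p = 0.0986. At an adjusted p under 0.1, and also by DESeq2 at 0.05, 7 genes were raised, among them Kcna2, Kcna3, Kcnb2, Kcnc4, Kcnk3 and Kcnk12. DESeq2 called 1833 of the 18052 tested genes in either direction here, where edgeR called 625. The share of all genes at an adjusted p under 0.1 was not counted. On the negative side Kcnh4, Kcnip2, Kcnj4 and Kcnab1 gave -1.83 ± 0.67, adjusted p = 0.121, -1.09 ± 0.58, adjusted p = 0.279, -1.09 ± 0.67, adjusted p = 0.347 and -0.87 ± 0.51, adjusted p = 0.328, and were not called. Of the 15 Kv1 to Kv4 pore genes 13 had a positive log2 fold change, with a median of 0.53. For these 15 genes edgeR and limma-voom called 0 and DESeq2 called 5 raised. By edgeR 7 had an unadjusted p under 0.05, beside 4185 of the 18052 tested genes.

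**Figure D3:**
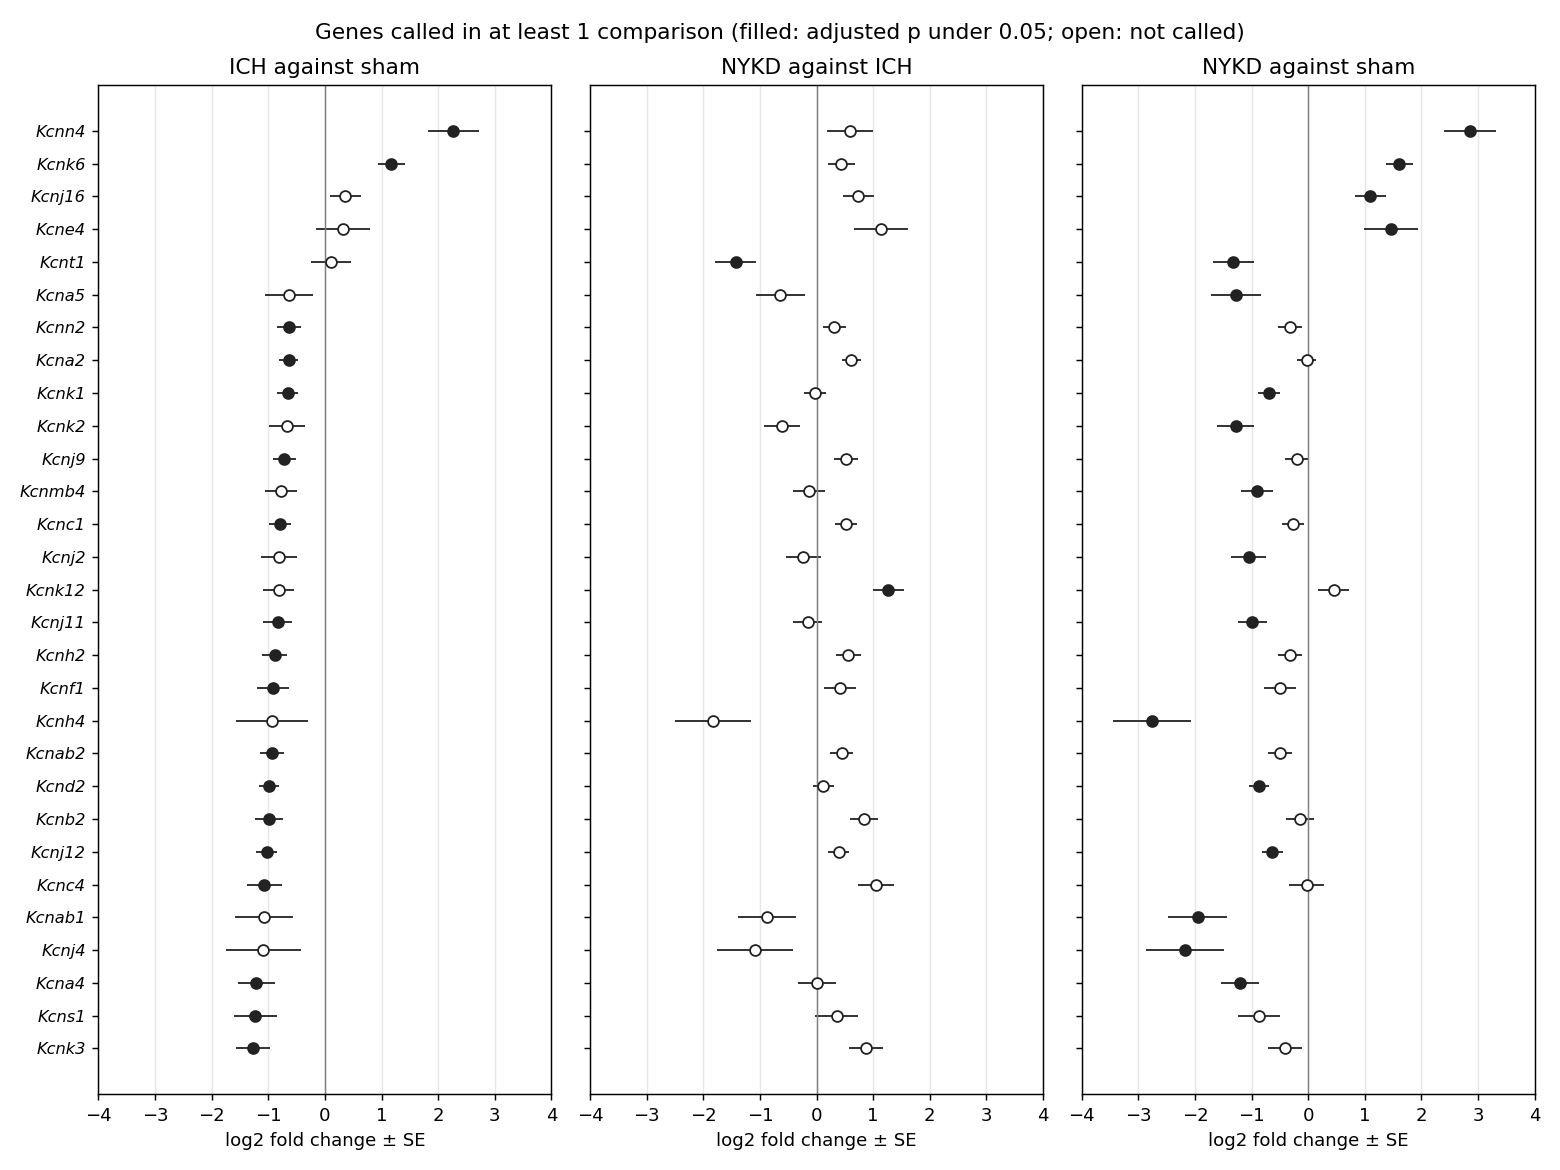
Log2 fold changes ± SE from the edgeR fit for 29 of the 30 genes called in at least 1 comparison, ordered by ICH against sham. Filled points passed an adjusted p of 0.05. Most points lie left of 0 in ICH against sham, where 16 of those shown are called lowered, and 1 point on each side is filled in NYKD against ICH.

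In NYKD against sham 13 genes were lowered, beside 8.08% of all tested genes, and 4 were raised, beside 15.3%. That is 16.9% and 5.19% of the 77. The median log2 fold change was -0.27 beside -0.02 over all tested genes. In 3 genes all NYKD libraries were below all sham libraries, beside 4.84% of all tested genes, and in 3 all were above, beside 13.9%. This comparison shares its sham libraries with ICH against sham and its NYKD libraries with NYKD against ICH, so its results do not stand apart from theirs.

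The 4 raised genes were Kcnn4, Kcnk6, Kcnj16 and Kcne4. Kcnn4 was at 2.95, 2.53, 3.85, 1.92 and 8.11 CPM in NYKD replicates 1 to 5 and Kcnk6 at 27.9, 38.4, 36.7, 15.8 and 30.3 CPM. Both lay above every sham library, by 7.26-fold for Kcnn4 (log2 fold change 2.86 ± 0.46, adjusted p = 0.000293) and 3.05-fold for Kcnk6 (1.61 ± 0.24, adjusted p = 0.000176). The 6 of 7 microglia and macrophage markers raised in the same comparison, the 4 of 5 endothelial markers and the 4 of 6 mural cell markers were not tested as a source of these rises.
Kcnj16 encodes Kir5.1, which pairs with Kir4.1 in astrocytes. It was at 35.6, 21.2, 22.7, 24.7 and 32.3 CPM in sham, 54, 43.2, 35, 11.8 and 31 CPM in ICH and 65.1, 55.1, 51.3, 64 and 56.2 CPM in NYKD. Every NYKD library exceeded every sham library, and the log2 fold change was 1.10 ± 0.28, adjusted p = 0.00964. In ICH against sham its log2 fold change was 0.36 ± 0.28, adjusted p = 0.404, and it was not called. Of the 26 alternatives 2 called it raised there, with an adjusted p down to 0.0144. These were the fits without ICH replicate 4 and without sham replicate 1 and ICH replicate 4. In NYKD against ICH it was not called. ICH replicate 4, the library rich in neutrophil markers, was the lowest of all 15 for Kcnj16, and astrocyte markers were lowest there too, at a mean log2 CPM of 8.50 against 9.34 to 9.65 in the other ICH libraries. Of 7 astrocyte markers 3 were raised in NYKD against sham. Kcne4, a single-pass subunit that inhibits several Kv channels, was at 2.47, 3.37, 1.34, 2.10 and 0.523 CPM in sham and 2.65, 6.23, 9.36, 4.74 and 4.05 CPM in NYKD, with NYKD replicate 1 inside the sham range (1.46 ± 0.48, adjusted p = 0.0366).

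Kcnj16 lies next to Kcnj2 on chromosome 11, on the same strand and 38.2 kb apart, and the pair were called in opposite directions. Kcnj2 encodes Kir2.1, the classical strong inward rectifier. It was at 16.1, 46.4, 38.5, 38.3 and 64.6 CPM in sham and 18.6, 31.3, 19, 14.8 and 14.9 CPM in NYKD. The 4 sham libraries other than replicate 1 exceeded every NYKD library, and the log2 fold change was -1.05 ± 0.31, adjusted p = 0.0236. Among 5 pairs of adjacent members within 200 kb of each other, Kcnj16 and Kcnj2 were the 1 pair with both members called in the same comparison. No other pair could therefore show opposite calls.

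The Kir2 genes Kcnj4 and Kcnj12 were lowered as well. Kcnj4 encodes Kir2.3, and its log2 fold change was -2.18 ± 0.68, adjusted p = 0.0322, from 128 ± 59.1 to 28.3 ± 19 CPM. Kcnj12 had values of 13.9, 8.82, 11.7, 8.26 and 8.69 CPM in NYKD, all below the sham values, and a log2 fold change of -0.64 ± 0.18, adjusted p = 0.02. Kcnj14, the remaining Kir2 gene, was at 3.90 ± 1.24 CPM in sham and 2.85 ± 0.866 in NYKD and was not called. The ATP-sensitive pore gene Kcnj11, at 23.8, 20.8, 26.3, 17 and 16.3 CPM in NYKD, lay below every sham library (-0.99 ± 0.26, adjusted p = 0.0107). The other ATP-sensitive pore gene, Kcnj8 of vascular mural cells, was at 6.40 ± 0.582 CPM in sham, 6.30 ± 1.81 in ICH and 6.37 ± 1.23 in NYKD.

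The most negative log2 fold changes in NYKD against sham were those of Kcnh4, Kcnj4 and Kcnab1. Kcnh4, an ether-a-go-go-like channel gene, was at 4.75, 38.4, 29.2, 38 and 12.1 CPM in sham, 7.22, 7.79, 4.66, 26.7 and 17.7 CPM in ICH and 3.36, 6.60, 5.89, 0.641 and 1.53 CPM in NYKD. Its log2 fold change was -2.76 ± 0.69, adjusted p = 0.00952. Sham replicate 1 and ICH replicates 1 to 3 were low, while ICH replicates 4 and 5 lay inside the range of the other sham libraries, and sham replicate 5, the highest in striatal markers, was at 12.1 CPM.
The same libraries were low for Kcnj4, at 31, 137, 138, 139.7 and 193 CPM in sham, 33.5, 29.9, 13.2, 130.5 and 93.2 CPM in ICH and 25.2, 44.3, 50.0, 18.3 and 3.64 CPM in NYKD. Kcnab1 was at 85, 318, 343, 326 and 430.0 CPM in sham, 109, 67.6, 51.2, 278 and 203 CPM in ICH and 54, 129, 93.2, 85.2 and 26 CPM in NYKD (-1.95 ± 0.53, adjusted p = 0.015). In all 3 genes NYKD replicate 5 or 4, the libraries with the least striatal marker signal, held the lowest value of their group. Kcnk2, which encodes the stretch- and lipid-gated channel TREK-1, fell from 112 ± 39.5 to 45.8 ± 10.4 CPM (-1.28 ± 0.32, adjusted p = 0.0094), and sham replicate 1 was the lowest sham library at 46.4 CPM. Of the 10 striatal markers 6 were lowered in NYKD against sham by edgeR; their part in these falls was not tested. Without sham replicate 1 and NYKD replicates 4 and 5, the log2 fold changes were -2.47 for Kcnh4, -1.94 for Kcnab1 and -1.29 for Kcnk2, all still called, and -1.93 for Kcnj4 with an adjusted p of 0.0658. That omission, chosen after the data were seen, left 7 lowered genes, 6 of them among the 13, and 3 raised. The libraries kept had striatal marker means of 8.53 to 8.87 in sham and 6.08 to 7.40 in NYKD, without overlap. The fit therefore does not test the part of striatal signal in these falls.

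**Figure D4:**
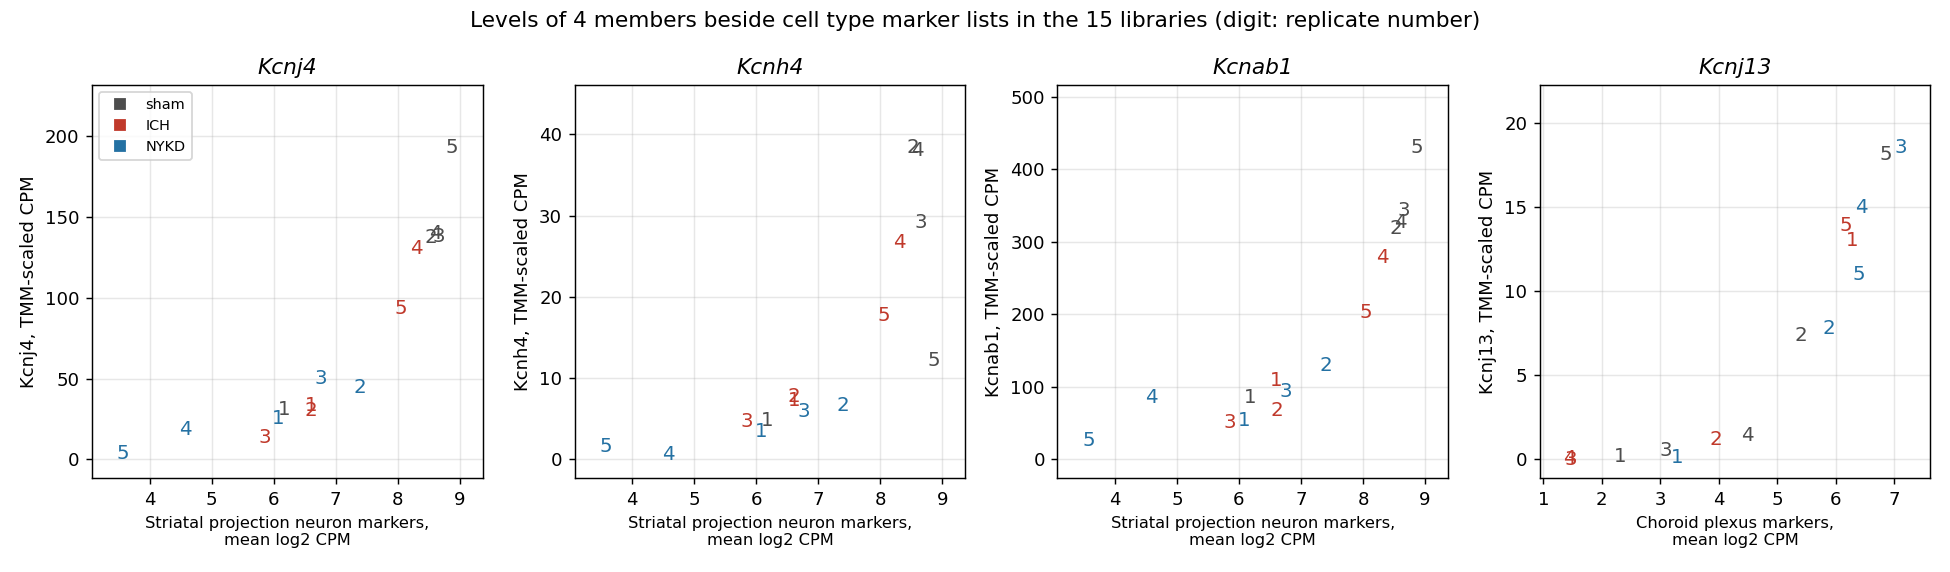
TMM-scaled CPM of Kcnj4, Kcnh4 and Kcnab1 against the mean log2 CPM of 10 striatal projection neuron markers, and of Kcnj13 against 7 choroid plexus markers, in the 15 libraries, with digits for replicate numbers. Sham replicate 1, at a striatal mean of 6.17, lies below the other sham libraries and ICH replicates 4 and 5, and Kcnj13 is above 5 CPM only in libraries with a choroid plexus mean above 5.

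The remaining lowered genes in NYKD against sham were Kcna4, Kcna5, Kcnd2, Kcnk1 and Kcnmb4, beside Kcnt1. Kcnd2 was at 102, 121, 96.7, 124 and 74.1 CPM in NYKD, so that NYKD replicate 4 just met sham replicate 1, and its log2 fold change was -0.87 ± 0.18, adjusted p = 0.00263. Kcna4 gave -1.20 ± 0.33, adjusted p = 0.0154 and Kcnk1 -0.69 ± 0.19, adjusted p = 0.0151. Kcna5, which encodes Kv1.5, fell from 30.5 ± 11.7 to 12.6 ± 4.14 CPM (-1.27 ± 0.44, adjusted p = 0.0458). Kcnmb4, the neuronal beta subunit of BK channels, fell from 6.02 ± 1.93 to 3.21 ± 0.844 CPM (-0.91 ± 0.28, adjusted p = 0.0261), and 20.8% of its exon bases are shared with the antisense transcript Kcnmb4os2, at 1.05 CPM. Of the 9 silent subunits 0 were called by edgeR or limma-voom and 1 by DESeq2. By edgeR 4 had an unadjusted p under 0.05, beside 6618 of the 18052 tested genes. Of the 5 Kcnq genes 0 were called by edgeR, DESeq2 or limma-voom, and 1 had an unadjusted p under 0.05. The count of lowered genes was lowest among the single omissions, at 8, without NYKD replicate 5. Calls that held in all 26 alternatives were those of Kcna4, Kcnd2, Kcnh4 and Kcnk2 among the 13 lowered genes and of Kcnj16, Kcnk6 and Kcnn4 among the 4 raised. The call for Kcna5 was lost in 13 of the 26, with an adjusted p of up to 0.15, that for Kcnj4 in 10 and that for Kcnj12 in 6. Without sham replicate 1 and NYKD replicates 4 and 5 the log2 fold change of Kcnj12 was -0.38, adjusted p = 0.285.

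Set side by side, the 3 comparisons sorted the genes into a few patterns. Lowered in ICH against sham and in NYKD against sham were Kcna4, Kcnd2, Kcnj11, Kcnj12 and Kcnk1, and for these the NYKD against ICH log2 fold change was not called. Kcnd2, for example, was at 189 ± 44.3, 95.4 ± 14.3 and 104 ± 20.3 CPM in sham, ICH and NYKD, and Kcnk1 at 119.6 ± 31.1, 75.7 ± 13.1 and 74 ± 18.2 CPM. A further 12 genes were lowered in ICH against sham and not called in the other comparisons, among them Kcna2, Kcnab2, Kcnb2, Kcnc1, Kcnc4, Kcnf1, Kcnh2, Kcnj9, Kcnk3, Kcnn2 and Kcns1. In those named the NYKD mean lay between the ICH and sham means, which is a description, since the genes were sorted by calls that use the same libraries. Kcnc1 was at 189.6 ± 37.4, 109 ± 27.1 and 158 ± 30.1 CPM and Kcnh2 at 60.0 ± 9.43, 32.5 ± 11.1 and 47.9 ± 11.7 CPM. A missed threshold in NYKD against sham does not show that NYKD and sham were alike. Called lowered in NYKD against sham and in neither other comparison were Kcna5, Kcnab1, Kcnh4, Kcnj2, Kcnj4, Kcnk2 and Kcnmb4, and 47 genes were called in no comparison.

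Several of the 47 uncalled genes are known from particular cells. Kcnk13, which encodes THIK-1, the background channel of microglia, was at 17.5 ± 1.35 CPM in sham, 18.9 ± 4.29 in ICH and 23.7 ± 4.21 in NYKD. Its log2 fold change was 0.11 ± 0.16, adjusted p = 0.675 in ICH against sham and 0.44 ± 0.16, adjusted p = 0.0646 in NYKD against sham. Kcnj13 encodes Kir7.1, the inward rectifier of the choroid plexus, and was picked out after its values were seen. It was at 0.185, 7.37, 0.512, 1.45 and 18.2 CPM in sham, 13, 1.21, 0, 0.0707 and 13.9 CPM in ICH and 0.118, 7.77, 18.6, 15 and 11 CPM in NYKD. Within each group it was high in the libraries high in choroid plexus markers and near 0 in the others. Of its exon bases 49.1% are shared with Gigyf2 on the other strand, at 68.1 CPM. Kcnj13 had no count in ICH replicate 3, and the effect of this overlap on its values was not tested. Kcnq1, a cardiac and epithelial pore gene, was at 0.867 ± 0.472, 1.23 ± 0.355 and 1.66 ± 0.539 CPM in the 3 groups, and its NYKD against sham log2 fold change was 0.94 ± 0.41, adjusted p = 0.108.

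The partners of these channels were taken from a list of 39 genes, of which 38 were tested, with roles in anchoring, assembling or balancing them. In ICH against sham 10 of the 38 were lowered, beside 4.58% of all tested genes, and 1 was raised, beside 12.4%, and the median log2 fold change was -0.37. Among the lowered ones were the Kv4 partners Dpp6 and Dpp10, the Kv2 partners Amigo1 and Vapb, Cntn2, which holds Kv1 channels beside the nodes, Ank3, which anchors M-current channels at the axon initial segment, the hyperpolarisation-activated channels Hcn2 and Hcn4, and the neuronal chloride exporter Slc12a5. Dpp10 fell from 101 ± 26.2 to 54 ± 14.8 CPM (-0.91 ± 0.23, adjusted p = 0.0136) and Dpp6 from 270.4 ± 42 to 185 ± 30.1 CPM (-0.55 ± 0.18, adjusted p = 0.0416), in the comparison in which their pore partner Kcnd2 was lowered. The call for Dpp6 was lost in 11 of 26 alternatives, with an adjusted p of up to 0.104, and that for Dpp10 in 1. Those for Cntn2 and Vapb were lost in 10 each. Amigo1 fell from 89.5 ± 5.63 to 58.7 ± 9 CPM (-0.61 ± 0.13, adjusted p = 0.00504). Hcn2 fell from 274 ± 24.1 to 155 ± 39.4 CPM (-0.82 ± 0.18, adjusted p = 0.00505). The raised gene was Slc12a7, a potassium-chloride cotransporter, which went from 6.31 ± 1.97 to 18.9 ± 3.43 CPM (1.58 ± 0.24, adjusted p = 0.00039).

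In NYKD against ICH 2 of the 38 partners were raised, beside 1.19% of all tested genes: Vapb (0.47 ± 0.12, adjusted p = 0.0409) and Dag1 (0.80 ± 0.20, adjusted p = 0.0409), a member of the dystrophin complex that anchors Kir4.1 in astrocyte endfeet. For lowered partners the count was 0 by edgeR, DESeq2 and limma-voom. By edgeR 14 of the 38 had an unadjusted p under 0.05 in either direction, beside 4185 of the 18052 tested genes. In NYKD against sham 6 were raised, Slc12a7, Slc12a4, Atp1b2, Dmd, Dag1 and Abcc9, and 5 were lowered, Abcc8, Slc12a5, Adam22, Dlg4 and Sptbn4. These are 15.8% and 13.2% of the 38, beside 15.3% raised and 8.08% lowered of all tested genes, so the raised share was close to the background. The sulfonylurea receptors, which complete the ATP-sensitive channels, parted company. Abcc8, the neuronal partner of Kcnj11, fell from 20.04 ± 3.46 to 11.5 ± 1.92 CPM (-0.80 ± 0.22, adjusted p = 0.0137), and Abcc9, the vascular partner of Kcnj8, rose from 19.1 ± 5.32 to 30.1 ± 3.46 CPM (0.66 ± 0.23, adjusted p = 0.0499). The call for Abcc9 was lost in 16 of 26 alternatives, and 4 of 6 mural cell markers were raised in the same comparison. Atp1b2, the astrocytic sodium pump subunit, rose from 637 ± 107 to 1200.0 ± 141 CPM (0.91 ± 0.20, adjusted p = 0.00387).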

How the data were processed

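The authors deposited 1 table of raw counts, with Ensembl genes in rows and a column for each mouse; the groups come from the sample titles. Per the submitters' processing notes, HISAT2 2.0.5, edgeR 3.22.5 and the genome build mm10 were used, with no step given for each. Which program counted the reads, on which annotation and with what strand setting is not given in the sources used here, so reads of overlapping genes on opposite strands may have been shared. Symbols, coordinates, transcript lengths and coding sequences came from GENCODE M21, and 54495 of the 54532 gene IDs matched a symbol. Library totals were 13539203 to 19909140 counts.

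All 15 libraries entered 1 model of the 3 groups without covariates, after filterByExpr (18052 genes) and TMM scaling, fitted by quasi-likelihood in edgeR 4.0.16 (R 4.3.3). Adjusted p values are Benjamini-Hochberg over all tested genes, and genes are called under 0.05. The SE is approximate, being the log2 fold change divided by the root of F. Levels are TMM-scaled CPM; log2 CPM has a prior count of 2. Log2 fold changes describe counts relative to the scaled total, not RNA per cell. Genes named are all those called, the 8 with the smallest p on each side of each comparison, the highest per length in each family and the 5 nearest the 1 CPM limit on each side; partners named are those called. Some genes that met these rules, and 1 sequence, are not reported here. The members and lists were chosen with earlier results of these data known. Alternatives were RLE factors, library totals, other filters, DESeq2 1.42.0, limma-voom 3.58.1, non-robust dispersions, 2-group fits, an adjusted p under 0.1, a replicate block and leaving out libraries.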

Additional observations from a re-analysis of the deposited data

Results flagged for a closer look

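In 8 of 108 groups of 5 libraries checked, 1 library lay far from the other 4 by Dixon's test. Chance alone does this in about 1 group of 20 where groups are independent and values normally spread. The groups here share the same 15 libraries and hold CPM without a log, so that rate need not apply. In sham, replicate 5 was high for Kcnab2 at 472 CPM, where the others ran from 294 to 334, and for Kcnk1 at 174 CPM, where they ran from 98.5 to 113. Sham replicate 1 was high for Kcnc4 at 60.2 CPM (others 36.4 to 42.2) and for Kcnj12 at 19.8 CPM (others 14.6 to 15.7). In ICH, replicate 1 was high for Kcnj6 at 9.46 CPM (others 1.03 to 2.60) and for Kcnk12 at 4.47 CPM (others 1.77 to 2.36), and replicate 2 was high for Kcnk3 at 15.5 CPM (others 6.25 to 8.54). In NYKD, replicate 2 was high for Kcnj2 at 31.3 CPM (others 14.8 to 19.0). All 8 were on the high side.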

How the results depend on the processing

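The counts of raised genes in ICH against sham (2) and NYKD against sham (4) stayed within 1.5 times of these values in all alternatives run. The 17 genes lowered in ICH against sham became 23 without sham replicate 1 and ICH replicate 4, 30 by DESeq2 and 30 at an adjusted p under 0.1, the last 2 holding all 17, and 10 to 20 when 1 library was left out, lowest without ICH replicate 3. The 13 lowered in NYKD against sham became 6 with no count filter, 7 without sham replicate 1 and NYKD replicates 4 and 5 (an omission chosen after the data were seen), and 8 to 15 without 1 library, lowest without NYKD replicate 5. In NYKD against ICH the 1 raised gene became 2 with RLE factors, 7 by DESeq2, 7 at an adjusted p under 0.1 and 0 in both fits without several libraries. It became 0 to 7 without 1 library: 0 without ICH replicates 3, 4 or 5 or NYKD replicates 1, 3, 4 or 5, 3 without ICH replicate 2, 4 without sham replicate 5 and 7 without ICH replicate 1. The 1 lowered gene became 0 with no count filter, by limma-voom, in a fit of the 2 groups alone and in both fits without several libraries, and 0 to 1 without 1 library, 0 in 11 of 15. Over all 18052 tested genes DESeq2 called 3945 in ICH against sham and 1833 in NYKD against ICH, where edgeR called 3062 and 625. The cause of these shifts was not tested.

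Same-numbered libraries of different groups did not deviate together (correlations of -0.438 to 0.444), so the numbers were not taken as pairs. With the replicate number as a block, the raised and lowered genes were 2 and 13 in ICH against sham, 0 and 0 in NYKD against ICH, and 4 and 10 in NYKD against sham.

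Among calls lost in most of the 26 alternatives were Kcnn2 in ICH against sham (15, adjusted p up to 0.131), Kcnt1 in NYKD against ICH (17, up to 0.276) and, among partners, Vapb and Dag1 in NYKD against ICH (17 and 14) and Abcc9 and Sptbn4 in NYKD against sham (16 and 14). The uncalled log2 fold change of Kcnt1 in ICH against sham, 0.11, turned to -0.026 by limma-voom, to -0.37 without sham replicate 1 and ICH replicate 4, and ran from -0.29 to 0.27 without 1 library, below 0 without ICH replicate 4, sham replicate 5 or ICH replicate 5. Library totals moved the median of all genes to 0.14 in ICH against sham, and the median of the 77 genes to -0.55. With other scalings all 462 group levels stayed within 1 SD, and the rule found 77 genes with TMM-scaled CPM too. Low counts limit the rarest members: a gene at 1 CPM has fewer than 20 counts in a library.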

Other observations

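Among the 47 genes called in no comparison, some had group means far apart with overlapping libraries; those named here were chosen after their values were seen. Kcnmb2, an inactivating beta subunit of BK channels, was at 4.16 ± 1.57 CPM in sham (SD, n = 5), 1.44 ± 0.898 in ICH and 2.46 ± 1.92 in NYKD. The silent subunit gene Kcnv1 was at 39.6 ± 23.5, 16.9 ± 9.75 and 14.9 ± 8.90 CPM, and its sham libraries ran from 8.02 to 72.5 CPM. Kcng4, another silent subunit gene, was at 20.1 ± 7.75, 9.06 ± 5.89 and 17 ± 5.55 CPM. Kcnj6, a GIRK subunit gene, was at 4.05 ± 2.22 CPM in sham, 3.43 ± 3.42 in ICH and 9.07 ± 5.50 in NYKD, where its libraries ran from 2.71 to 17.4 CPM.

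Other uncalled genes held nearly the same mean in all groups. Kcnmb1, the smooth muscle beta subunit of BK channels, was at 2.20 ± 0.707, 2.25 ± 0.218 and 2.19 ± 0.548 CPM in sham, ICH and NYKD. Kcnn3 was at 52.1 ± 15.1, 47.2 ± 14.3 and 51.1 ± 9.48 CPM, and Kcnd1 at 14.3 ± 4.27, 13.5 ± 2.66 and 12.2 ± 0.742 CPM. Equal means within this spread do not show that these genes were unaffected.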
